A study of Mus musculus with 28 samples.

Results

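The genes described here build the epidermal basement membrane and hold basal keratinocytes to it. They are integrins, laminins, basement membrane collagens, proteoglycans, hemidesmosome components and a few glycoproteins that bind them. They were listed by name, with earlier results of these data known: 45 genes of the 55536 in the count tables, each matching 1 identifier. Of these, 42 had enough counts to be tested, and Itga9, Nid2 and Frem1 did not.

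The counts came from poly(A) RNA sequencing of sorted mouse interfollicular epidermis (IFE), the epidermis between hair follicles, in a study of basal lineages. All mice were labelled wild type and carried the tdTomato reporter at the Rosa locus with a tamoxifen-inducible Cre named for its driver, Slc1a3CreER, AspmCreER, K14CreER or Dlx1CreER. All received tamoxifen daily from postnatal day 30 to day 34 and were harvested 2 weeks later at day 49, in telogen, the resting phase of the hair cycle. From each sort the labels give a labelled population (for example Slc1a3+ IFE) and the total IFE of the same line. Back skin was sampled from the Slc1a3 and Aspm lines (3 libraries per population each) and the K14 line (2 per population). Tail skin was sampled from the Slc1a3, Aspm and Dlx1 lines (2 per population each). This gives 16 back and 12 tail libraries in 12 groups. The labels do not say whether replicates were separate animals, or whether labelled cells were part of the total. The p-values therefore measure the spread between these libraries, which may be partly technical. No date or batch is labelled, so a difference in handling between back and tail libraries cannot be told apart from site. Replicate 4, present in each back line and in no tail line, has its name parts in another order. The labels do not say what that order means. In bulk RNA, fewer cells of a type and less RNA per cell cannot be told apart either.

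A hemidesmosome is the rivet that joins the keratin network of a basal keratinocyte to the basement membrane. Integrin α6 (Itga6) and β4 (Itgb4) and type XVII collagen (Col17a1) cross the plasma membrane, plectin (Plec) and the epithelial dystonin isoform (Dst) tie them to keratins, and outside the cell they bind a laminin that contains the Lama3 and Lamb3 chains. That laminin is held to the dermis by anchoring fibrils of type VII collagen (Col7a1), and the sheet itself is a mesh of laminins and type IV collagen linked by nidogens and perlecan (Hspg2). Integrins of the β1 family sense the same matrix at focal contacts.

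The libraries held 7738262 to 37670589 counts, with a median of 20193387.5. The replicate 4 library of back total IFE from the Slc1a3 line stood apart: its total was the smallest, 14436 genes were detected in it and 0.208% of its counts were mitochondrial. Where leaving it out changed a call, both values are given. Basal keratinocyte markers (Krt5, Krt14, Krt15 and others, 8 genes) summed to 50790 to 80689 CPM (counts scaled to a library of fixed size) in back libraries and 62196 to 120189 in tail libraries. The 8 upper follicle and sebaceous markers summed to 627 to 1124 CPM in back and 710 to 1588 in tail. The 10 markers of the follicle bulge and germ summed to 260 to 812 CPM in back and 787 to 2128 in tail, and Cd34, which defines the bulge, ranged from 0 to 2.42 CPM in back and 0.542 to 22.3 in tail. The 10 fibroblast markers summed to 31.3 to 142 CPM in back and 57.9 to 194 in tail, mostly from Thy1. Col1a1 stayed between 0 and 5.94 CPM in all libraries, and Twist2 was at 0 in 26 of 28. The 10 endothelial and mural markers summed to 47.7 to 151 CPM in back and 36.5 to 104 in tail, mostly from Notch3, and Cdh5 was at 0 in 13 libraries. The part of these other cells in the differences below was not tested.

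Per kilobase of exon, Col17a1 was the most abundant member at both sites, with a mean over groups of 1175 CPM per kb in back and 1049 in tail. The next 4 in back were Lamb3 at 132, Itgb4 at 127, Itga6 at 125 and Itgb1 at 112 CPM per kb. In tail they were Itgb4 at 167, Itgb1 at 109.98, Lamb3 at 105 and Col18a1 at 95.7 CPM per kb. At the other end, Nid1, Nid2, Lama2, Col4a3, Col4a4, Egflam, Itga9 and Frem1 each stayed at or below 0.130 CPM per kb at both sites. Lamb3, Itgb4 and Col17a1 were thus among the leading 4 at both sites, while several members from the middle of the back order moved far up or down in tail.

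**Figure D1:**
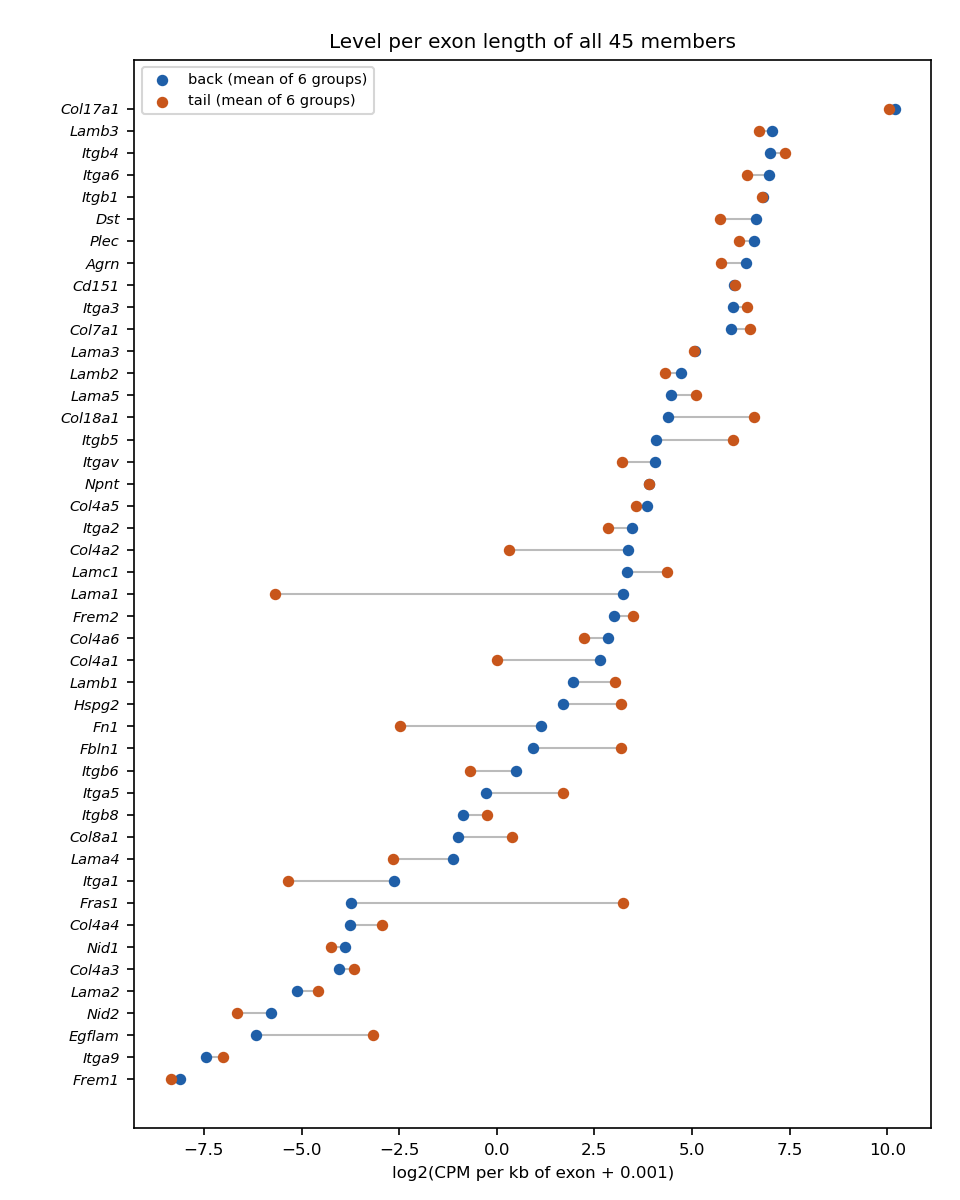
Level per exon length of all 45 members, as the mean of 6 back groups (blue) and 6 tail groups (orange), on the log2(CPM per kb of exon + 0.001) scale, ordered by the back level. Col17a1 leads at both sites, and Lama1 and Fras1 have the longest lines between the 2 sites.

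The main contrast in these genes was between tail and back skin. In total IFE, 28 of the 42 members tested passed at an adjusted p under 0.05 in edgeR's quasi-likelihood test (Slc1a3 and Aspm lines, 4 tail against 6 back libraries), 13 higher and 15 lower in tail. Of all 17493 genes tested, 46.2% passed in the same contrast, 22.5% higher and 23.7% lower. In Slc1a3+ cells 22 members passed, 8 higher and 14 lower, against 40.6% of all genes. In Aspm+ cells 23 passed, 11 higher and 12 lower, against 27.2% of all genes. In all 3 contrasts 18 members passed, 7 higher and 11 lower in tail, each in the same direction throughout, and 12 passed in none. The share of all genes that did either was not counted, so these counts have no background to be read against. The 3 contrasts use different libraries but are not independent. They come from the same fit with a shared spread, and labelled and total libraries with the same replicate number deviated together.

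Over all 28 libraries, including the K14 and Dlx1 lines that the contrasts did not use, 5 members had every tail library above every back library: Itga5, Itgb5, Col18a1, Fras1 and Fbln1. Of all genes, 5.93% did so. Another 5 had every back library above every tail library: Itga1, Lama1, Col4a1, Col4a2 and Fn1, against 5.77% of all genes. Without the back library that stood apart, Itgav joined the second set (6 members, against 7.18% of all genes). Total IFE of the K14 and Dlx1 lines, outside these contrasts, gave a further comparison, in which line differs along with site. Of the 13 members higher in tail, 11 had both Dlx1 tail libraries above both K14 back libraries, as did 33.2% of all genes, and 1, Cd151, went the opposite way, at 227 and 232 CPM in back and 151 and 195 CPM in tail. Of the 15 lower in tail, 11 had both K14 libraries above both Dlx1 libraries, as did 31.0% of all genes, and 0 had both below both. The libraries of Itga2, Itga6, Col4a5 and Dst overlapped. Of these, Itga6 and Dst had lower means in Dlx1 tail. Itga2 (71.8 against 68.6 CPM) and Col4a5 (98.4 against 92.5 CPM) had higher means in Dlx1 tail than in K14 back. These shares are of all genes tested, whereas the members had already passed the site contrast. The share among all genes that passed it in the same direction was not counted.

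**Figure D2:**
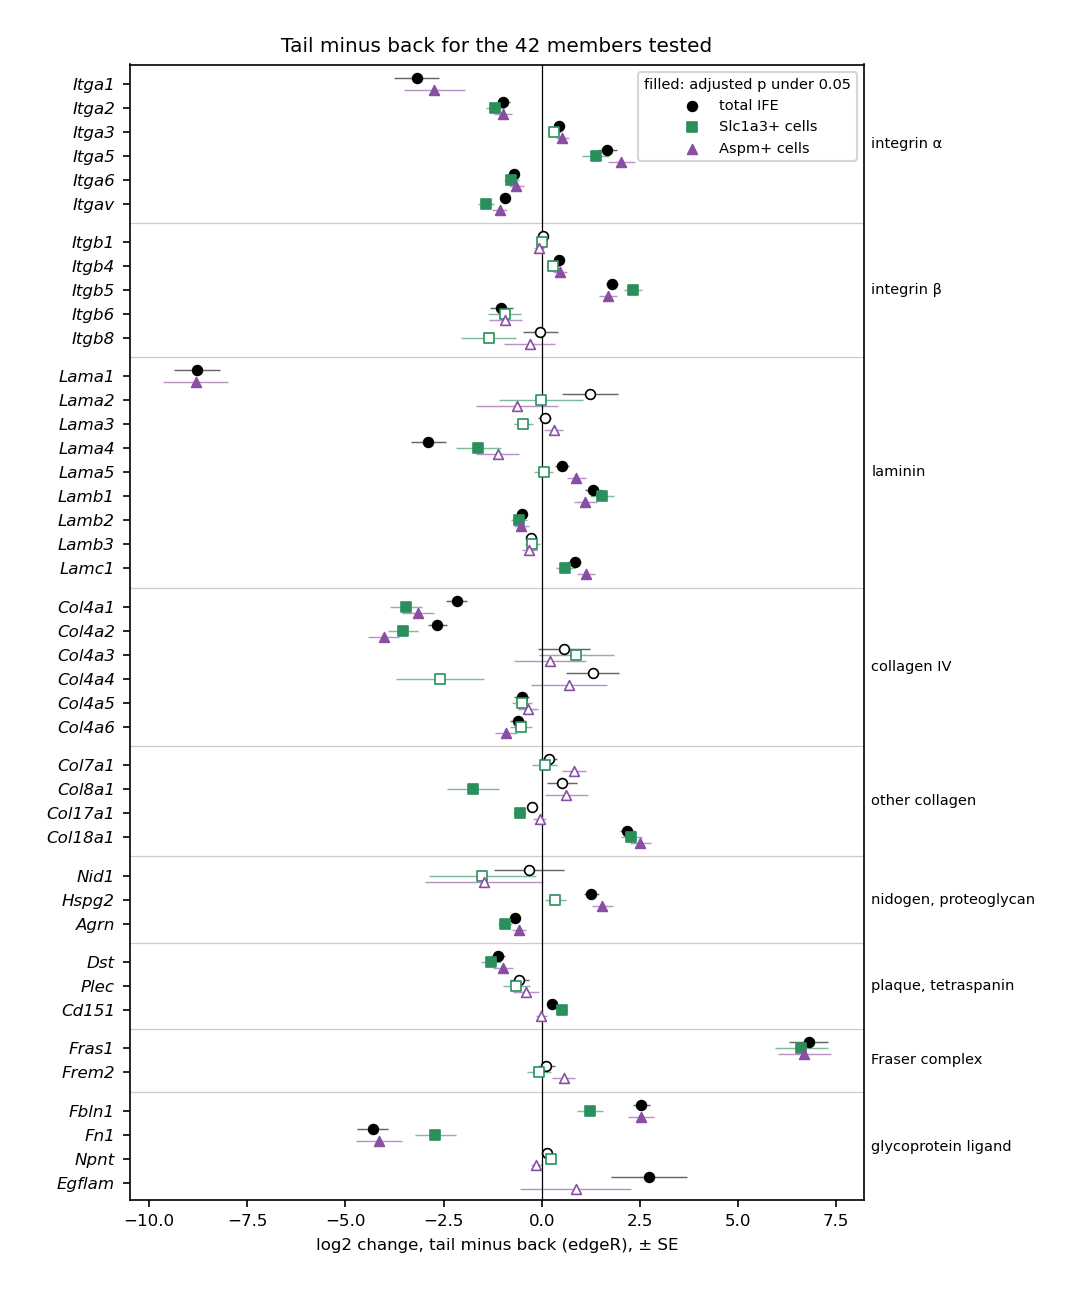
Change between sites for the 42 members tested, grouped by role: log2 change, tail minus back, ± SE, in total IFE (circles), Slc1a3+ cells (squares) and Aspm+ cells (triangles), with filled symbols where the adjusted p was under 0.05. Contrasts in which a group had 0 counts (Lama1, Itga1 and Egflam in Slc1a3+ cells) are not drawn. Fras1 lies farthest to the right and Lama1 farthest to the left.

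Among integrin α subunits, 2 of 6 tested were higher and 4 lower in tail total IFE. Itga6, the hemidesmosomal α subunit, was at 819.8 to 1463 CPM (median 1104) in the 16 back libraries and 571 to 970.1 CPM (median 783) in the 12 tail libraries. The ranges overlapped at one end, and the change in total IFE was -0.71 on the log2 scale (SE 0.14, adjusted p 0.00022). Itga3, the laminin receptor of focal contacts, went the other way, from 281 to 469.8 CPM (median 374) in back to 347 to 561 CPM (median 502) in tail, a change of 0.45 (SE 0.12, adjusted p 0.0036). Itga5, the fibronectin receptor subunit, was at 2.34 to 7.94 CPM in back and 9.25 to 20.1 CPM in tail with no overlap, 1.67 higher on the log2 scale (SE 0.24).

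The collagen receptors Itga1 and Itga2 were lower in tail in the site contrasts of the Slc1a3 and Aspm lines. Itga2 ran from 60.5 to 103 CPM (median 78.8) in back and 32.1 to 85.7 CPM (median 45.5) in tail, where the 4 Dlx1-line libraries, at 57.9 to 85.7 CPM, held the 4 highest values. The Itga2 change in total IFE was -0.98 (SE 0.16). In the lines outside the contrasts Itga2 overlapped between sites. Totals were at 60.9 and 76.3 CPM in K14 back and 57.9 and 85.7 CPM in Dlx1 tail. Labelled cells were at 63.4 and 80.2 CPM in K14 back and 62.5 and 77.7 CPM in Dlx1 tail. Itga1 was low throughout, at 0.971 to 8.17 CPM in back and 0 to 0.926 CPM in tail. Both tail Slc1a3+ libraries had 0 counts of Itga1, against 91 counts in the 3 back Slc1a3+ libraries, a level at least 9.73-fold lower if 3 counts per library are taken as the limit of detection. Itgav, the αV subunit that binds RGD-containing ligands, was at 119.5 to 225 CPM in back and 67.7 to 135 CPM in tail, with a change of -0.94 (SE 0.13). Itga9 reached at most 0.344 CPM in any library.

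Of the 5 β subunits, Itgb1, the shared partner of most α subunits here, showed no change that passed: 362 to 526 CPM in back and 390.3 to 489 CPM in tail, with log2 changes of 0.03 (SE 0.09, adjusted p 0.81) in total IFE, -0.00088 (SE 0.12) in Slc1a3+ cells and -0.07 (SE 0.12) in Aspm+ cells. Itgb4, the hemidesmosomal β subunit, was at 646 to 1019.6 CPM (median 899) in back and 957 to 1354 CPM (median 1166) in tail, higher by 0.45 in total IFE (SE 0.12, adjusted p 0.0034) and by 0.47 in Aspm+ cells (SE 0.17, adjusted p 0.042). In Slc1a3+ cells the Itgb4 change of 0.30 (SE 0.17) did not pass. Itgb5, which pairs with αV, was at 43.7 to 101 CPM in back and 202 to 283 CPM in tail. All tail libraries were above all back libraries, and the changes were 1.79 (SE 0.16), 2.33 (SE 0.23) and 1.68 (SE 0.22) in total IFE, Slc1a3+ and Aspm+ cells. Itgb6, the epithelial partner of αV, fell by 1.03 in tail total IFE (SE 0.29, adjusted p 0.0057) from a low level of 4.95 to 14.6 CPM in back. Itgb8 was at 0.200 to 14.03 CPM in back and 0.698 to 24.0 CPM in tail and passed in no site contrast.

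For Itga6 with Itgb4 and Itgav with Itgb5, subunits that moved in opposite directions, the ratio separated the sites. Per length of exon, Itga6 and Itgb4 stood at a median ratio of 0.985 in back and 0.504 in tail, and no tail library reached the lowest back library. The ratio of Itgav to Itgb5 was 1.08 in back and 0.141 in tail, also with no overlap, as for Itgb5 alone. The ratio of Itga3 to Itgb1 was 0.586 in back and 0.788 in tail, with overlapping libraries. Libraries also overlapped for the ratios of Col4a1 to Col4a2, Col4a5 to Col4a6, Lama3 to Lamb3 and Lamb1 to Lamc1. The share of all gene pairs whose ratio separates the sites was not counted. These ratios compare RNA of genes annotated with different exon lengths; a change of transcript isoform would also move them.

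**Figure D3:**
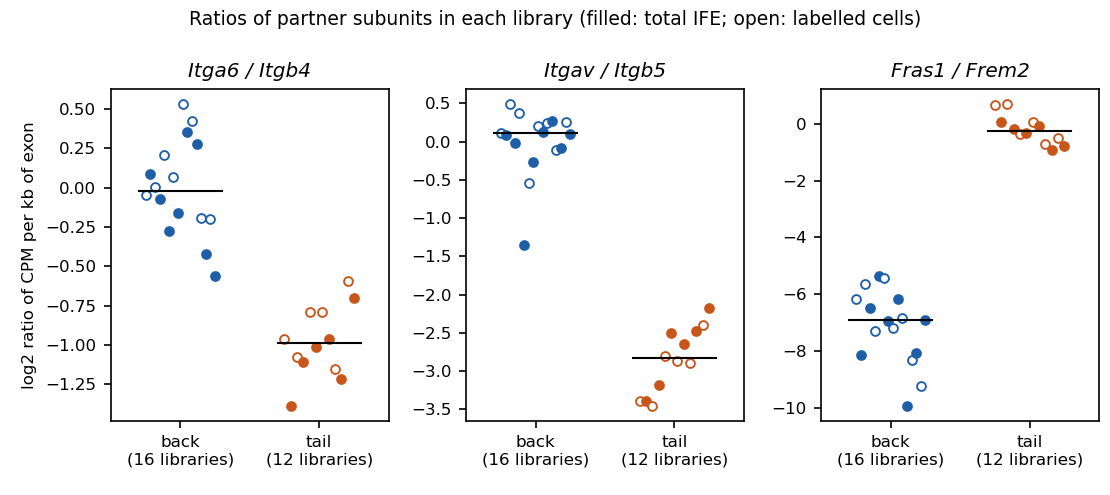
Ratio of partner genes in each library, as log2 of the ratio of CPM per kb of exon, for Itga6 to Itgb4, Itgav to Itgb5 and Fras1 to Frem2 in 16 back (blue) and 12 tail (orange) libraries; filled points are total IFE, open points labelled cells, and bars are medians. In each panel the back and tail libraries do not overlap, and 1 back library lies far below the others for Itgav to Itgb5.

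Laminins are trimers of an α, a β and a γ chain. The hemidesmosomal chains Lama3 and Lamb3 did not pass in any site contrast. Lama3 was at 274 to 496 CPM in back and 194 to 472 CPM in tail, with a change in total IFE of 0.07 (SE 0.16, adjusted p 0.74). Lamb3 was at 632 to 1167 CPM in back and 557 to 782 CPM in tail, with a change of -0.27 (SE 0.13, adjusted p 0.11).

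The chains of the more widespread laminins changed more. Lama1, the α chain of the laminin of embryonic and some adult basement membranes, was at 38.4 to 135 CPM (median 87.6) in back and 0 to 0.823 CPM (median 0.130) in tail. Every back library, in all 3 lines and both populations, was far above every tail library. Summed over total IFE of the Slc1a3 and Aspm lines, 10086 counts in back stood against 14 in tail, a pooled ratio of 477 after scaling to library size, with a 95% interval of 284 to 873 that covers counting error only; the fitted change was -8.79 (SE 0.58, adjusted p 1e-10). In Slc1a3+ cells the tail libraries had 0 counts against 4012, at least 415.5-fold lower at the same limit. Lama4, the α chain known from vessels and fat, fell by 2.88 in tail total IFE (SE 0.44) from 0.980 to 11.2 CPM in back, by 1.61 in Slc1a3+ cells (SE 0.58, adjusted p 0.030), and its change of -1.12 (SE 0.56) in Aspm+ cells did not pass. Vwf, from the list of 10 endothelial and mural markers, moved the same way in total IFE. Its group means were 4.75 and 7.02 CPM in back totals and 0.170 and 0.513 CPM in tail totals of the same lines. The 10 markers summed to means of 115 and 89.3 CPM in the Slc1a3 and Aspm back totals and 56.9 and 72.7 in tail. In K14 back and Dlx1 tail totals these sums were 69.9 and 88.9 CPM, with Lama4 at 3.79 and 2.36 CPM. The part of these markers in the Lama4 result was not tested. Lama2 stayed at or under 2.20 CPM.

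Lamb1 and Lamc1, the β and γ chains that assemble with most of these α chains, were higher in tail. Lamb1 was at 17.4 to 56.7 CPM in back and 55.1 to 112 CPM in tail, with changes of 1.31 (SE 0.21), 1.54 (SE 0.30) and 1.11 (SE 0.30) in total IFE, Slc1a3+ and Aspm+ cells. Lamc1 was at 58.8 to 111 CPM in back and 104 to 204 CPM in tail, with changes of 0.84 (SE 0.17), 0.61 (SE 0.24) and 1.13 (SE 0.24). Lama5, the main α chain of the adult epidermal basement membrane besides Lama3, rose by 0.52 in tail total IFE (SE 0.17, adjusted p 0.014) and by 0.88 in Aspm+ cells (SE 0.24), while its change of 0.05 in Slc1a3+ cells (SE 0.24, adjusted p 0.89) did not pass. Lamb2 was lower in tail by 0.51, 0.58 and 0.52 on the log2 scale in the 3 contrasts (adjusted p 0.0038, 0.022 and 0.049). Thus the 3 chains Lamb1, Lamc1 and Lama5 rose where Lama1, Lama4 and Lamb2 fell in tail total IFE.

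Type IV collagen is a trimer built from 6 chains whose genes lie as 3 head-to-head pairs. The pair Col4a1 and Col4a2, which forms the common network of most basement membranes, had the largest changes. Col4a1 was at 21.1 to 73.7 CPM (median 42.4) in back and 1.98 to 15.8 CPM (median 5.65) in tail. Col4a2 was at 39.0 to 111 CPM (median 59.4) in back and 1.99 to 15.5 CPM (median 6.76) in tail. All back libraries were above all tail libraries for both. The changes of Col4a1 and Col4a2 were -2.17 (SE 0.26) and -2.66 (SE 0.25) in total IFE, -3.46 (SE 0.41) and -3.54 (SE 0.38) in Slc1a3+ cells, and -3.16 (SE 0.41) and -4.02 (SE 0.39) in Aspm+ cells. The 2 genes are transcribed away from each other on chromosome 8 and their annotated first exons overlap by 22 bases, the stretch of DNA that both transcripts begin in. It is shown because the 2 members moved together, read on the plus strand of GRCm38.p6 from the RefSeq promoter of Col4a2 at chr8:11312805-11312826, with a GC box (GGGCGG, the core bound by Sp-family factors) in capitals.
Col4a1 and Col4a2 shared start: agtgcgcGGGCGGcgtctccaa

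In total IFE the other 2 pairs changed less or were low. Col4a5 and Col4a6, which form a second network in skin, were at 71.9 to 162 and 38.1 to 70.1 CPM in back and 49.1 to 114 and 20.5 to 49.5 CPM in tail. Their changes in total IFE were -0.51 (SE 0.18, adjusted p 0.026; -0.34, adjusted p 0.085 without the back library that stood apart) and -0.60 (SE 0.20, adjusted p 0.016), and in Aspm+ cells Col4a6 changed by -0.90 (SE 0.28, adjusted p 0.020). Their starts are 1309 bases apart on chromosome X. Col4a3 and Col4a4, best known from the kidney, whose starts are 72 bases apart on chromosome 1, reached at most 1.93 and 4.66 CPM and did not pass in any site contrast. In Slc1a3+ cells Col4a4 was at 1.83, 1.03 and 1.46 CPM in back and 0.466 and 0 CPM in tail, with no overlap. That Col4a4 change of -2.59 (SE 1.12, adjusted p 0.068) passed with DESeq2 (-2.60, adjusted p 0.026), with the replicate block (-3.21, adjusted p 0.023), with no low-count filter (-2.60, adjusted p 0.046) and without the back library that stood apart (-2.59, adjusted p 0.038). Per length, Col4a5 was the most abundant type IV collagen gene at both sites. In tail it was at 11.8 CPM per kb, against 4.72 for Col4a6, 1.24 for Col4a2 and 1.003 for Col4a1. In back Col4a5 was at 14.3 CPM per kb, against 7.19, 10.3 and 6.20 for the same genes.

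**Figure D4:**
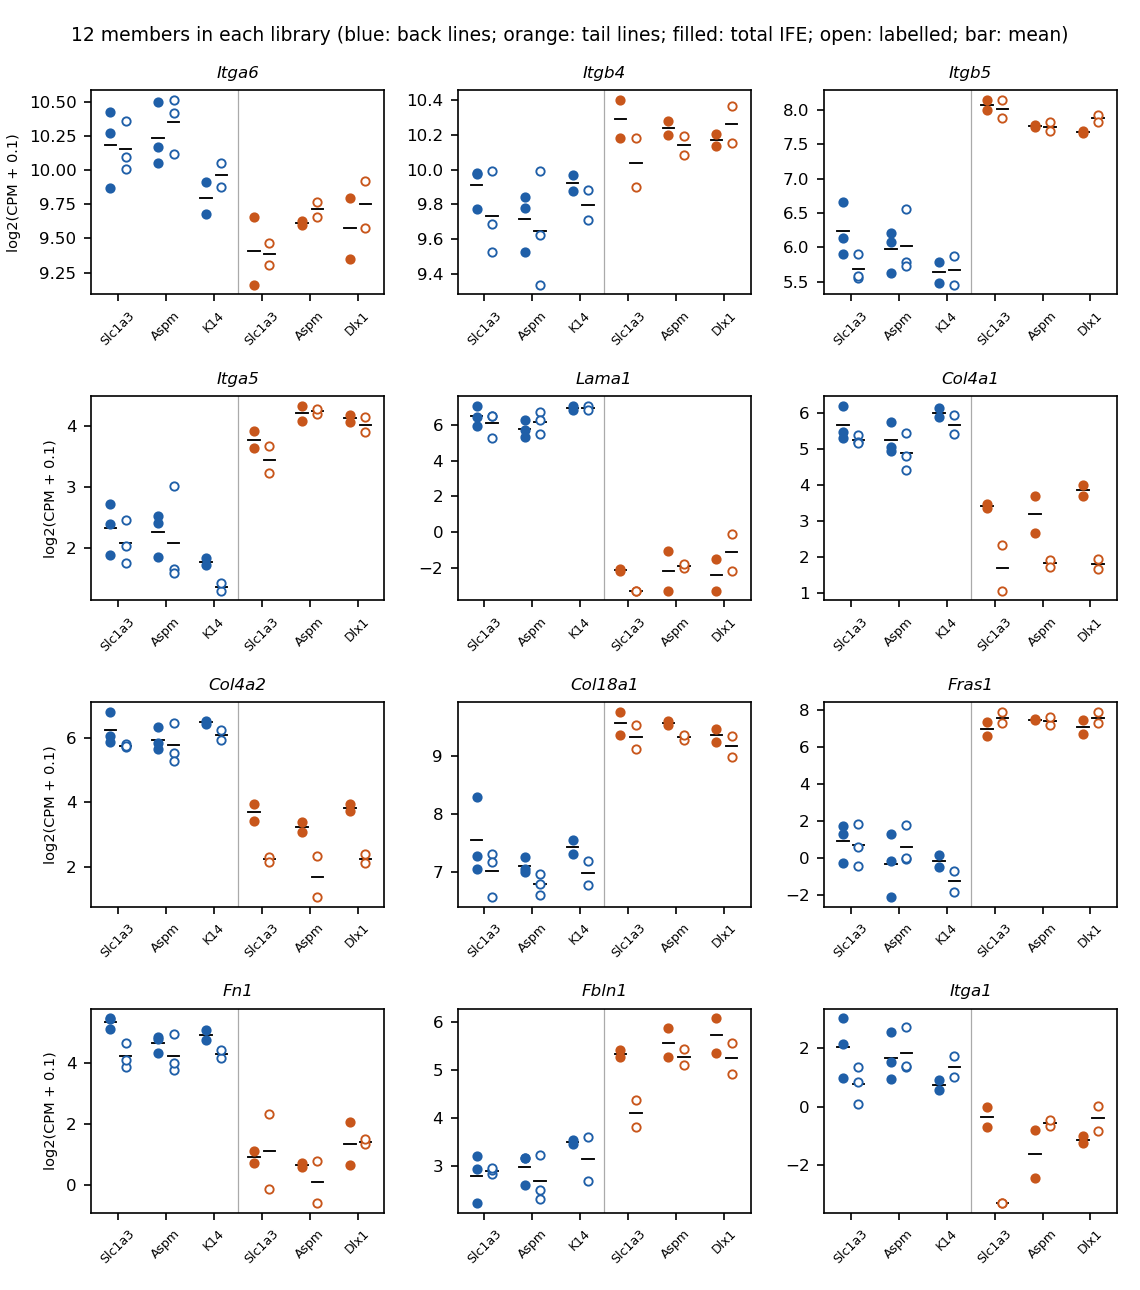
Level of 12 members in each of 28 libraries on the log2(CPM + 0.1) scale, by line, with back lines in blue on the left and tail lines in orange on the right of each panel; filled points are total IFE, open points labelled cells, and bars are group means. Itga6 and Itgb4 shift by a small amount in opposite directions, while Itgb5, Itga5, Lama1, Col4a1, Col4a2, Col18a1, Fras1, Fn1, Fbln1 and Itga1 separate the sites with no overlap.

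Among the other collagens, Col18a1 had the largest change in each of the 3 contrasts. Col17a1, the transmembrane collagen of the hemidesmosome, was at 5702 to 8437 CPM in back and 4656 to 7740 CPM in tail. Its change was -0.24 in total IFE (SE 0.11, adjusted p 0.089) and -0.05 in Aspm+ cells (SE 0.16), which did not pass, and -0.56 in Slc1a3+ cells (SE 0.16, adjusted p 0.0078), which did. Col7a1 was at 444 to 1901 CPM in back, the top value from the library that stood apart, and 566 to 1260.4 CPM in tail, with a change in total IFE of 0.18 (SE 0.22, adjusted p 0.53). Without that library the Col7a1 change was 0.51 and passed (adjusted p 0.0095). This was the only 1 of 15 alternatives to pass (0.0077 to 0.51 over all 15, adjusted p up to 0.99). In Aspm+ cells Col7a1 was 0.82 higher in tail (SE 0.31, adjusted p 0.052), which did not pass, and 7 of 11 alternatives passed (0.72 to 1.02). In Slc1a3+ cells the Col7a1 change of 0.08 (SE 0.31, adjusted p 0.87) did not pass. In total IFE both Dlx1 tail libraries, at 884 and 1067 CPM, were above both K14 back libraries, at 523 and 589 CPM. Col18a1, whose C-terminal fragment is endostatin, was at 95.3 to 315 CPM (median 139) in back and 506 to 864 CPM (median 658) in tail. Its changes were 2.18 (SE 0.18, adjusted p 1.3e-09), 2.29 (SE 0.26) and 2.51 (SE 0.26) in total IFE, Slc1a3+ and Aspm+ cells. Col8a1, a short-chain collagen best known from vessels and the eye, was lower in tail Slc1a3+ than in back Slc1a3+ cells (-1.75, SE 0.67, adjusted p 0.040), did not pass in the other 2 site contrasts and is described further with the labelled cells.

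Proteoglycans split. Hspg2 (perlecan) was at 29.5 to 70.9 CPM in back and 46.7 to 182 CPM in tail; it rose by 1.26 in total IFE (SE 0.19) and 1.54 in Aspm+ cells (SE 0.27), and its change of 0.35 in Slc1a3+ cells (SE 0.27) did not pass. Agrn (agrin) was at 572 to 912 CPM in back and 308 to 613 CPM in tail, lower by 0.67, 0.94 and 0.58 on the log2 scale in the 3 contrasts (SE 0.12, 0.17 and 0.17). The linker Nid1 was at 0 to 1.85 CPM and did not pass. Nid2 reached at most 0.507 CPM, and 8.45% of its exon bases overlap Rtraf, an abundant gene on the opposite strand that unstranded libraries cannot separate from it.

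Of the plaque genes, Dst was at 2837 to 6277 CPM in back and 1303 to 2889 CPM in tail, a change in total IFE of -1.11 (SE 0.18), with -1.30 (SE 0.26) in Slc1a3+ and -0.99 (SE 0.25) in Aspm+ cells. These counts do not separate the epithelial isoform of Dst from its neuronal and muscle isoforms. Plec was at 1112 to 3603 CPM in back, the top value from the library that stood apart, and 624 to 1638 CPM in tail. Its change of -0.57 in total IFE (SE 0.24, adjusted p 0.055) did not pass, while in 9 of 15 alternatives it did (-0.86 to -0.36 over all 15, adjusted p 6.3e-05 to 0.27). Cd151, the tetraspanin that accompanies laminin-binding integrins, was at 122 to 232 CPM in back and 151 to 231 CPM in tail, higher by 0.26 in total IFE (SE 0.10, adjusted p 0.039). That Cd151 call held in 7 of 15 alternatives and was lost with library totals (0.20, adjusted p 0.10), with no low-count filter (0.29, adjusted p 0.091) and without the back library that stood apart (0.21, adjusted p 0.075). In the hemidesmosome core, tail total IFE therefore had more Itgb4 and less Itga6 and Dst. Col17a1, Plec, Lama3 and Lamb3 did not pass there, although Col17a1 and Lamb3 each passed, lower in tail, in 3 of 15 alternatives (-0.33 to -0.16 and -0.34 to -0.19 over all 15).

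The Fraser complex ties the epidermal basement membrane to the dermis during development. Fras1 was at 0.131 to 3.50 CPM (median 0.886) in back and 94.1 to 237 CPM (median 168) in tail. In total IFE of the 2 shared lines 13379 tail counts stood against 164 back counts, a pooled ratio of 123 after scaling to library size, with a 95% counting interval of 106 to 145, and the fitted change was 6.81 (SE 0.49, adjusted p 1.1e-09). In Slc1a3+ and Aspm+ cells it was 6.61 (SE 0.68) and 6.68 (SE 0.68). Its partner Frem2 was at 74.2 to 157 CPM in back and 67.9 to 244 CPM in tail and did not pass, with a change of 0.11 (SE 0.21, adjusted p 0.69) in total IFE. Per length, the ratio of Fras1 to Frem2 was therefore 0.00828 in back and 0.842 in tail. Frem1 reached at most 0.297 CPM.

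Among the glycoproteins, Fn1 (fibronectin) was at 13.5 to 44.0 CPM (median 25.5) in back and 0.560 to 4.93 CPM (median 1.57) in tail, with changes of -4.31 (SE 0.40), -2.71 (SE 0.52) and -4.14 (SE 0.58) in total IFE, Slc1a3+ and Aspm+ cells. The tail Slc1a3+ libraries differed, at 0.815 and 4.93 CPM of Fn1, and the change there was -1.93 without replicate 1 and -4.52 without replicate 2, passing in both. Its receptor subunit Itga5 changed the opposite way, as given above. Fbln1 (fibulin), a glycoprotein that binds fibronectin and laminins, was at 4.60 to 12.1 CPM in back and 14.1 to 67.7 CPM in tail, with changes of 2.54 (SE 0.23), 1.23 (SE 0.32) and 2.53 (SE 0.32). Dcn, a fibroblast marker, was also higher in tail, at 13.2 to 32.8 CPM against 0 to 3.77 CPM. Col1a1 was at 0 to 4.26 CPM in back and 1.65 to 5.94 CPM in tail. The 10 fibroblast markers summed to means of 41.7 and 39.4 CPM in the Slc1a3 and Aspm back totals and 103 and 134 in tail. In K14 back and Dlx1 tail totals these sums were 90.3 and 64.5 CPM, with Fbln1 at 11.2 and 54.3 CPM. The part of these markers in the Fbln1 result was not tested. Npnt (nephronectin), a ligand of integrin α8, was at 59.2 to 90.6 CPM in back and 61.9 to 89.9 CPM in tail, with a change of 0.12 (SE 0.10, adjusted p 0.33) that did not pass. Egflam reached at most 1.93 CPM; its 81 tail and 18 back counts in total IFE gave a change of 2.73 (SE 0.97, adjusted p 0.026).

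RefSeq promoter windows, 250 bases before to 50 after the start on GRCm38.p6, were found for 34 of the 45 genes. The GC box GGGCGG, searched on both strands, was in 23 of these, or 67.6%, against 35.7% of all 32851 windows of the same length. The CCAAT box (CCAAT) was in 12, or 35.3%, against 37.4%. The TATA box (TATAAA) was in 1 against 13.6% of all windows, and the AP-1 site TGANTCA in 2 against 7.81%. These matches are letters in a window, not shown sites. Among the 5 members that were higher in tail in all 3 contrasts and had a window, 4 held a GC box, as did 6 of the 8 that were lower. Of the members that passed in all 3 contrasts and had a window, the 250 bases upstream are shown for the one with the largest mean change in each direction, leaving out the collagen IV pair shown above. These are Col18a1 at chr10:77166531-77166780 and Itga1 at chr13:115101965-115102214, both on the minus strand. They are printed 5′ to 3′ toward the start with any match to the 4 motifs in capitals. The Col18a1 stretch, 62.0% G and C, holds 3 GC boxes near its start site and 1 CCAAT box farther upstream, both in reverse orientation, and the Itga1 stretch, 57.6% G and C, holds none of the 4.
Col18a1 upstream: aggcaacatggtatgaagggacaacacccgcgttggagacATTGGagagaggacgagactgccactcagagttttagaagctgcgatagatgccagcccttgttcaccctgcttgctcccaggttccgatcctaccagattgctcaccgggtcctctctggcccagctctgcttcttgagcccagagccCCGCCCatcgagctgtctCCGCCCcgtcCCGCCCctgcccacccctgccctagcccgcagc
Itga1 upstream: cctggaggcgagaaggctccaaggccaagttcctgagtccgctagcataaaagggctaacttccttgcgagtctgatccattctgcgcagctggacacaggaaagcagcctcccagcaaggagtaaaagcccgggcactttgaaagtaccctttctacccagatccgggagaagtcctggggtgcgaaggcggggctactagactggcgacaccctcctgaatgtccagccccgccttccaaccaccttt

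Of the 28 calls in total IFE, 23 held under every alternative run, as did 13 of 22 in Slc1a3+ cells and 12 of 23 in Aspm+ cells. In total IFE, Lama5 was lost without tail Slc1a3 total replicate 2 (0.31, adjusted p 0.178), and Cd151, Col4a5, Col4a6 and Egflam were lost without any one of 3 to 6 libraries each, with adjusted p from 0.0515 to 0.151. Among these libraries, the back library that stood apart carried the calls of Cd151 (0.21 without it, adjusted p 0.075) and Col4a5 (-0.34, adjusted p 0.085), and 27 members passed without it. In Slc1a3+ cells, leaving out tail replicate 1 ended the calls of Itga6 (-0.69), Lama4 (-0.89), Lamb2 (-0.47), Col17a1 (-0.42), Cd151 (0.42), Fbln1 (0.92) and Col8a1 (-1.42). Leaving out tail replicate 2 ended those of Itga5 (1.12), Lamc1 (0.24) and Col8a1 (-2.18). Leaving out back replicate 1 ended those of Lama4 (-1.12), Lamc1 (0.41) and Col8a1 (-0.90), replicate 2 that of Lamb2 (-0.53) and replicate 4 that of Lamc1 (0.63). In Aspm+ cells, 13 members passed without tail replicate 2, which ended the calls of Itga1, Itga2, Itga3, Itga6, Itgb4, Lama5, Lamb1, Lamb2, Agrn and Dst at adjusted p of 0.0515 to 0.181. There the calls of Itgb4 and Lamb2 were each lost without any one of 4 libraries (0.32 to 0.52 and -0.57 to -0.28), those of Itga1, Itga3, Itga6 and Agrn without any one of 3, and that of Col4a6 without back replicate 2 or tail replicate 1. Lamb2, one of the 18 members that passed in all 3 contrasts, was also lost there with DESeq2 (-0.49, adjusted p 0.057) and with its size factors (-0.49, adjusted p 0.069). Single libraries also moved the size of some changes that still passed, each in the same direction. In total IFE, Lama1 was -11.4 without tail Aspm total replicate 1 and Itga1 was -4.01 without tail Aspm total replicate 2. In Slc1a3+ cells, Lama4 was -3.10 and Col4a1 -4.27 without tail replicate 2, and Fras1 was 7.48 without back replicate 2. In Aspm+ cells, Itga5 was 2.67 and Fras1 7.59 without back replicate 1, and Col4a2 was -4.84 and Fn1 -5.11 without tail replicate 1. Scaling by library totals moved the median of all genes in Slc1a3+ cells from -0.09 to -0.29, a shift shared by all genes, and on that scale Lamc1 (0.40) and Cd151 (0.31) no longer passed.

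Other genes of the same matrix were read in the same site contrast. They came from lists of related genes, also chosen with earlier results of these data known. Of 19 further basement membrane genes tested in total IFE, 9 were higher and 4 lower in tail, where 46.2% of all genes passed (22.5% higher, 23.7% lower), with a median change of 1.49 against -0.03 for all genes. Sparc, which binds collagen IV, was at 72.9 to 244 CPM in back and 471 to 1025 CPM in tail (2.49, SE 0.16). Col6a1 (1.77, SE 0.16) and Col6a2 (4.97, SE 0.52), chains of the microfibrillar type VI collagen, and Papln (papilin; 1.70, SE 0.22) were also higher. Smoc2 (-1.46, SE 0.11) and Hmcn1 (hemicentin; -2.45, SE 0.33) were lower. Of 10 further integrin subunits tested, 3 were higher and 2 lower, a share close to that of all genes, with a median change of 0.07. Itga4 was at 0 to 0.611 CPM in back and 2.71 to 13.8 CPM in tail (4.42, SE 0.60), and Itgb3 (2.18, SE 0.69) and Itgam (2.66, SE 0.92) were also higher. Itga7, a laminin receptor subunit, fell by 2.59 (SE 0.42) and the collagen receptor subunit Itga10 fell by 2.44 (SE 0.67). Of 14 other matrix receptors, 8 were higher and 4 lower, with a median of 0.53. Among these, Dag1 (dystroglycan, a laminin receptor) rose by 0.82 (SE 0.15), the syndecan Sdc1 by 0.71 (SE 0.10), the glypican Gpc1 by 0.85 (SE 0.15), Cspg4 by 1.28 (SE 0.16) and the tetraspanin Cd81 by 1.16 (SE 0.12), while the collagen receptor Ddr2 fell by 4.29 (SE 0.54). Col6a2 was higher in tail totals, at means of 16.4, 11.5 and 22.5 CPM in the Slc1a3, Aspm and Dlx1 lines, than in the labelled cells of the same lines, at 1.82, 2.57 and 2.95 CPM.

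Differences between labelled cells and the total IFE of the same line were few. Of 42 members in 6 such comparisons, 1 passed in 1 comparison: Col8a1 in tail Slc1a3+ cells. It was at 0.524 and 0.890 CPM in the labelled libraries and 7.37 and 8.46 CPM in the totals, a change of -3.48 (SE 0.71, adjusted p 0.016, edgeR quasi-likelihood test), where 0.514% of all genes passed. The call was lost without any one of these 4 libraries, with changes of -3.90 to -3.13. Without the back library that stood apart, which enters through the pooled spread, Itga1 (adjusted p 0.044) and Col4a2 (-1.51, adjusted p 0.044) also passed here, and Col4a1 (-2.06, adjusted p 0.037) in tail Dlx1+ cells. Col8a1 had lower means in the other 5 labelled populations, where no member passed. In these 5, edgeR called 0.0% to 0.109% of all genes, 0 to 9 members had an unadjusted p under 0.05, and DESeq2 called 2 members in Dlx1+ cells, 1 in K14+ cells and 0 in the others. In the K14 line it was at 0.171 and 0.123 CPM against 2.47 and 2.17 CPM in the totals, a change of -3.87 (SE 0.83, adjusted p 0.265).

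Labelled and total libraries with the same replicate number deviated together, so the numbers were read as pairs, and a fit with the pair as a block was made beside the main one. With that block 5 members passed in tail Slc1a3+ cells, all lower than the total: Col8a1, Col4a1, Col4a2, Fbln1 and Itga1, where 1.49% of all genes passed. In tail Dlx1+ cells 2 passed with the block, Col4a1 (-2.07, adjusted p 0.0029) and Col4a2 (-1.59, adjusted p 0.0061), where 0.463% of all genes did. Col8a1 passed with the block in back Slc1a3+ cells (-1.48, adjusted p 0.017; 0.354% of all genes) and in K14+ cells (-3.90, adjusted p 0.00050; 0.103% of all genes). No member passed in either Aspm comparison with the block, where edgeR called 0.0% and 0.0343% of all genes.

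Col4a1 was lower in every labelled tail library than in its total. It was at 1.98 and 4.99 CPM in tail Slc1a3+ cells against 11.0 and 10.1 CPM in the totals, at 3.66 and 3.23 against 12.9 and 6.32 CPM in the Aspm line, and at 3.09 and 3.77 against 13.0 and 15.8 CPM in the Dlx1 line. Without the block these differences of -1.60 (SE 0.42), -1.48 (SE 0.41) and -2.06 (SE 0.40) did not pass, with adjusted p from 0.0869 in the Dlx1 line upward. Col4a1 was lower in the labelled library in 14 of 14 pairs, as was Col8a1, while 0.394% of all genes were. Col4a2, Itgb8, Agrn, Col18a1 and Lamb2 were lower in 13 of 14, and 1.33% of all genes were lower in at least 13. No member was higher in 14 or in at least 13 pairs, as 0.0743% and 0.514% of all genes were; Lamb1 was higher in 12 and Itga6 in 11. The difference between tail and back in the labelled-over-total effect was tested in the Slc1a3 and Aspm lines and passed for no member in edgeR or DESeq2, with 7 and 2 members at an unadjusted p under 0.05 in edgeR and 0.0915% and 0.0% of all genes called.

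The follicle bulge and germ markers were also lower in the labelled populations. The 10 bulge and germ markers summed to means of 828 CPM in tail Slc1a3+ cells against 1432 in the totals, 1063 against 1395 in the Aspm line and 1416 against 2119 in the Dlx1 line. In back the same means were 374 against 525, 492 against 643 and 331 against 473 CPM in the Slc1a3, Aspm and K14 lines. The 8 upper follicle and sebaceous markers had lower means in labelled cells except in the tail Aspm line, at 1460 against 1449 CPM. Cd34 was at mean levels of 2.71, 1.01 and 1.88 CPM in labelled tail cells and 17.2, 11.0 and 20.0 CPM in tail totals. The part of these markers in the lower Col8a1, Col4a1, Col4a2 and Itgb8 of labelled cells was not tested.

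**Figure D5:**
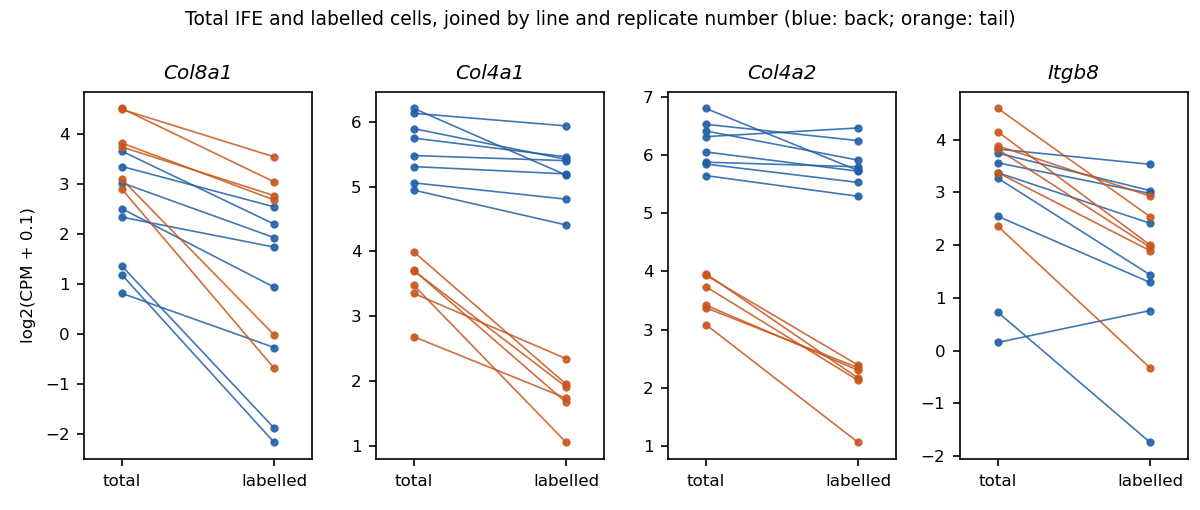
Col8a1, Col4a1, Col4a2 and Itgb8 in total IFE and labelled cells on the log2(CPM + 0.1) scale, with lines joining libraries of 1 line and replicate number in back (blue) and tail (orange). All 14 lines fall for Col8a1 and Col4a1, and 13 of 14 fall for Col4a2 and Itgb8.

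Lines were also compared within a site. In tail, 5 members were lower in Slc1a3+ than in Dlx1+ cells and 0 were higher, where 5.47% of all genes passed. Col8a1 was at 0.524 and 0.890 CPM in Slc1a3+ cells and 8.18 and 11.6 CPM in Dlx1+ cells (-3.80, SE 0.71, adjusted p 0.0042). Hspg2 was at 46.7 and 83.7 against 159 and 140.1 CPM (-1.20, SE 0.30, adjusted p 0.022), and Frem2 at 71.4 and 109.5 against 187 and 244 CPM (-1.25, SE 0.34, adjusted p 0.032). Itga2 was at 32.8 and 45.9 against 62.5 and 77.7 CPM (-0.83, SE 0.25, adjusted p 0.0498). Itga1 had 0 counts in Slc1a3+ cells and 33 in Dlx1+ cells, at least 3.92-fold lower (adjusted p 0.019). In each of the 5 the libraries of the 2 populations did not overlap. With 2 libraries in each and members picked by this same test, that adds no further support. The calls were sensitive to the number of libraries: 0 members passed without tail Slc1a3+ replicate 1, 2 without tail Dlx1+ replicate 1 and 1 without tail Dlx1+ replicate 2, and those of Itga1 and Itga2 were lost without any one of the 4. Where lost, the changes were -3.47 for Col8a1, -7.33 to -6.35 for Itga1, -1.05 to -0.97 for Frem2, -1.29 to -0.83 for Hspg2 and -1.09 to -0.61 for Itga2. Without the back library that stood apart, which enters through the pooled spread, Fbln1 (-1.15, adjusted p 0.026) and Itgav (-0.65, adjusted p 0.012) also passed. Scaling by library totals lowered the median of all genes in this contrast from -0.05 to -0.24 and raised the count to 11.

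Tail Slc1a3+ cells were also lower than Aspm+ cells in Col8a1 (-3.20, SE 0.71, adjusted p 0.039), the 1 member to pass where 0.492% of all genes did, and this call was lost without any one of the 4 libraries, with changes of -3.63 to -2.87. No member passed between Slc1a3+ and Aspm+ cells in back (0.16% of all genes), between Aspm+ and Dlx1+ cells in tail (0.0915%) or between the line totals compared (0.0114% in back, 0.00572% to 1.92% in tail). In these 6 comparisons edgeR gave 1 to 8 members with an unadjusted p under 0.05, and DESeq2 called 1 member between the back Slc1a3 and Aspm totals, 1 between the tail Slc1a3 and Dlx1 totals and 0 in the others. Nearest among the totals was Itga2, at 32.1 and 44.4 CPM in the Slc1a3 line and 57.9 and 85.7 CPM in the Dlx1 line (-0.91, SE 0.25, adjusted p 0.0566). Without the back library that stood apart Itga2 (-0.90, adjusted p 0.020) and Itgav (-0.55, adjusted p 0.038) passed there. Comparisons within tail share libraries: the Slc1a3+ libraries enter 2 of them.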

How the data were processed

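Read counts per gene were analysed for 28 libraries of sorted mouse epidermis. The deposited values are raw counts per Ensembl gene as the authors gave them, 55536 identifiers, all matched to GENCODE M21. Per the labels' protocols, RNA was isolated with TRIzol and libraries were poly(A)-selected and non-directional. The submitters' processing notes name Trim Galore 0.6.0, cutadapt, FastQC, STAR 2.7.0e, DESeq2 1.26.0, and GRCm38 and mm10. The counting tool is not given in the sources used here. Because strand was not kept, counts are uncertain where exons overlap another gene (among members Nid2, Col4a3, Plec, Dst, Itgb4, Cd151, Itgav, Col4a1 with Col4a2, and others).

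The counts were fitted with edgeR 4.0.16 (TMM scaling, filterByExpr with a minimum count of 10, robust quasi-likelihood fit) in R 4.3.3, with 1 coefficient for each of the 12 groups, 17493 genes and 16 residual degrees of freedom. P-values were Benjamini-Hochberg adjusted over all genes tested and called under 0.05. CPM uses the TMM effective library size. Intervals are 95% and the limit of detection is 3 counts per library; both cover counting error only. The scripts were tested on simulated data. Figures used matplotlib 3.10.9.

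Labelled and total libraries with the same number deviated together in 14 of 14 pairs (r 0.18 to 0.689 over 10376 genes). These numbers were therefore read as pairs. The r values are of deviations from group means. In the K14 line and the tail lines, with the fewest libraries per group, same-numbered pairs give equal r by construction. There r was 0.362 in K14, and 0.510, 0.321 and 0.674 in tail Slc1a3, Aspm and Dlx1. The count of 14 thus overstates the number of separate values. Alternatives were DESeq2 1.42.0, its size factors, library totals, no low-count filter, a replicate block, and leaving out each library.

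The members and the lists of related genes were chosen with earlier results of these data known. Named genes were all members by role, with every member that passed, and up to 6 passing genes for each related list by lowest p. The values of 1 related gene are not reported here.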

Additional observations from a re-analysis of the deposited data

How the results depend on the processing

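The direction of a small change depended on the setting for 5 members, none of which passed there. In total IFE, Itgb1 was -0.031 with library totals, -0.0043 with the replicate block and -0.013 to 0.071 leaving out 1 library (-0.012 without the back library that stood apart), and Lama3 was -0.0013 with the block and -0.079 to 0.20 leaving out 1 library. In Slc1a3+ cells, Itgb1 was 0.015 with DESeq2 or its size factors and -0.026 to 0.014 leaving out 1 library, and Col7a1 was -0.12 with library totals and -0.37 to 0.42 leaving out 1 library. In Aspm+ cells, Cd151 was 0.030 with size factors, 0.031 with DESeq2, 0.048 with the block and -0.060 to 0.081 leaving out 1 library, and Col17a1 was -0.15 to 0.14 leaving out 1 library.

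Counts of members passing between labelled cells and totals moved as follows. With no low-count filter they were 3 in back Slc1a3+, 1 in K14+, 6 in tail Slc1a3+, 2 in tail Aspm+ and 3 in Dlx1+ cells, and 1 for the difference between sites in the Slc1a3 line. With DESeq2 they were 1 in K14+, 4 in tail Slc1a3+ and 2 in Dlx1+ cells. With the replicate block they were 1 in back Slc1a3+, 1 in K14+, 5 in tail Slc1a3+ and 2 in Dlx1+ cells. Without the back library that stood apart, a setting added after seeing the data, they were 3 in tail Slc1a3+ and 1 in Dlx1+ cells. Leaving out 1 library gave 0 to 0 in tail Slc1a3+ cells.

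Between lines, no low-count filter gave 4 for the back Slc1a3 and Aspm totals, 5 for tail Slc1a3+ and Aspm+ cells, 14 for Slc1a3+ and Dlx1+ cells and 6 for their totals; DESeq2 gave 1, 3, 8 and 1. The replicate block gave 3, 10 and 2 for the last 3 of these, and library totals gave 11 and 1 for the last 2. The totals of Slc1a3 and Dlx1 gave 2 without the back library that stood apart and 0 to 1 leaving out 1 library. Slc1a3+ against Aspm+ cells gave 0 to 0 leaving out 1 library, and Slc1a3+ against Dlx1+ cells 0 to 4, or 7 without the back library that stood apart. The site contrast in Aspm+ cells gave 13 without tail replicate 2 and at most 24. The cause was not tested. Same-numbered libraries did not deviate together throughout across sites (r -0.059 to 0.321, 3 of 8 over 0.1) or lines (r -0.117 to 0.343, 12 of 26). Between back lines r ran from -0.071 to 0.343 and was mostly positive. Whether numbers pair across sites or lines is therefore not known, and there the block rests on the number alone. Between tail lines, same-numbered pairs also give equal r by construction.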

Other observations

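Cytoplasmic and enzymatic partners of these genes were also read in tail against back total IFE. Of 20 focal adhesion genes tested, 7 were higher and 3 lower in tail (edgeR, adjusted p under 0.05), close to the 46.2% of all genes that passed, with a median log2 change of 0.05 against -0.03 for all genes. Parva (1.01, SE 0.11), Zyx (1.43, SE 0.16), Pxn (0.87, SE 0.14), Actn1 (0.68, SE 0.13) and Tln2 (0.92, SE 0.24), which link integrins to actin, were higher, and the adaptor Bcar1 fell by 0.63 (SE 0.12).

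Of 19 genes for processing of the matrix, 10 were higher and 4 lower, with a median of 0.54, where 22.5% of all genes were higher and 23.7% lower. The collagen chaperone Serpinh1 (1.07, SE 0.10), the procollagen proteinase Bmp1 (0.93, SE 0.10), the gelatinase Mmp2 (1.55, SE 0.18), the plasminogen activator Plau (1.13, SE 0.16) and the prolyl hydroxylase subunit P4hb (0.70, SE 0.10) were higher. The matrix protease Adamts1 fell by 2.48 (SE 0.31).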
